A study of Mus musculus with 4 samples.

Results

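The mouse genome holds 39 Hox genes in 4 clusters, and all 39 were found among the 23990 genes of the deposited tables by their symbols (Hoxa, Hoxb, Hoxc or Hoxd followed by a number, opposite-strand transcripts left out). They were described in RNA-seq of alveolar type 1 (AT1) cells, flat cells through which the lung exchanges gas, sorted from lungs of mice of strain mixed B6 and 129 at postnatal day 3 or 4. Every animal carried Scnn1a-Cre, in which Cre is expressed with the sodium channel gene Scnn1a. The deposited labels give the Sox2-labelled libraries (n = 2) the genotype Scnn1a-Cre; Rosa[Sox2/+], a Cre-dependent Sox2 transgene. They give the control-labelled pair (n = 2; titled WT) Scnn1a-Cre; Rosa[mTmG/+], a Cre-dependent membrane reporter. Littermates were compared, and dead cells were removed in the sort by SYTOX staining. No label says whether the libraries of a label came from separate animals, so a p-value here reflects just the variation among 4 libraries, which may be technical.

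Hox genes encode homeodomain transcription factors that give cells their position along the body axis. Their order on the chromosome follows the order in which they are used from head to tail, and genes at the same place in different clusters are paralogs with the same number. Most Hox proteins bind DNA together with TALE homeodomain cofactors of the Pbx, Meis and Pknox families. In the lung, Hox genes of the middle groups, Hoxa5 above all, are known from the mesenchyme around the airways, and loss of Hoxa5 disturbs lung development.

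The level of Sox2 went against the labels. It was 1.41 and 1.99 FPKM (fragments scaled by transcript length and library size) in the Sox2-labelled pair and 302 and 477 FPKM in the control-labelled pair (log2 difference -7.15, SE 0.34, limma adjusted p = 2.39e-06). The labels of the pairs may have been exchanged, which was not tested, so the genotype behind each label is uncertain. Directions below follow the labels as deposited and therefore run against the level of the gene they name. Between 11062 and 12096 genes reached 1 FPKM per library. Small RNA genes took 50.9% of the summed FPKM in control-labelled replicate 2 and 5.76% to 19.3% in the others, and across the 12040 tested genes the log2 difference had a median of -0.29. The AT1 marker list (10 genes) was present in every library, with summed FPKM of 6809 and 7772 in the Sox2-labelled pair and 1319 and 786 in the control-labelled pair. Basal cell markers summed to 2.18 and 1.48 FPKM in the Sox2-labelled pair and to 58.7 and 212 FPKM in the control-labelled pair, with 3 of 3 tested called lower (Dapl1, Itgb4 and Trp63).

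Of the 39 Hox genes, 17 (43.6%) were listed at 0 in all 4 libraries, against 23.3% of all genes. A further 11 were above 0 in every library and 11 in some. Those listed at 0 were all 9 Hoxc genes, Hoxa11, Hoxa13, Hoxb1, Hoxb13, Hoxd1, Hoxd10, Hoxd12 and Hoxd13. Per library, 19 and 15 members were above 0 in the Sox2-labelled pair and 18 and 14 in the control-labelled pair. Only 8 members reached 1 FPKM anywhere, namely Hoxa2, Hoxa3, Hoxa4, Hoxa5, Hoxb2, Hoxb3, Hoxb4 and Hoxb5. All 8 did so in Sox2-labelled replicate 1, 3 in Sox2-labelled replicate 2, 2 in control-labelled replicate 1 and 0 in control-labelled replicate 2. The members reaching 1 FPKM thus belong to paralog groups 2 to 5 in clusters A and B, a choice set by Sox2-labelled replicate 1. In control-labelled replicate 2, Hoxb6 (0.277 FPKM) stood above Hoxb3, Hoxb4 and Hoxb5 (0.228, 0.219 and 0.214 FPKM). There group 6 held 15.2% of the Hox sum and group 4 held 6.90%.

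The 250 bases before the transcription start are shown for the highest member, Hoxa5, and for 3 paralogs of group 4, which stood at different levels (Hoxb4 up to 1.45 FPKM, Hoxd4 up to 0.0626 FPKM, Hoxc4 listed at 0). The sequences are RefSeq's on build GRCm38.p6, each read along its gene's own strand, and capitals mark CpG dinucleotides, the sites of DNA methylation in mammals. Their positions are chr6:52204588-52204837 on the minus strand for Hoxa5, and on the plus strand chr11:96318017-96318266 for Hoxb4, chr15:103034145-103034394 for Hoxc4 and chr2:74721728-74721977 for Hoxd4.
Hoxa5: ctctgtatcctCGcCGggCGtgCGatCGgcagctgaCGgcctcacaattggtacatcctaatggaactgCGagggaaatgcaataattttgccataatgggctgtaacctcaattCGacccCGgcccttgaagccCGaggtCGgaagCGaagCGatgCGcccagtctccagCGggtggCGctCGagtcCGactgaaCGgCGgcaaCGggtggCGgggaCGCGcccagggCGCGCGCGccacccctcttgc
Hoxb4: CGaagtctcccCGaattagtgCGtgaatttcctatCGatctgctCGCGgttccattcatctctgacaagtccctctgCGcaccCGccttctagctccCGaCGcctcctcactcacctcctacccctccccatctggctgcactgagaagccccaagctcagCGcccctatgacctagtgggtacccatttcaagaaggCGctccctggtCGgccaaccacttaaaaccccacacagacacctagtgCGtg
Hoxc4: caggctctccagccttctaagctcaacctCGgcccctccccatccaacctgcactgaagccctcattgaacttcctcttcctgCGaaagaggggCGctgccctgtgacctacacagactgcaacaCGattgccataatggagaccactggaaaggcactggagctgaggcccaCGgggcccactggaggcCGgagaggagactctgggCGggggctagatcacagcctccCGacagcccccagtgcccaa
Hoxd4: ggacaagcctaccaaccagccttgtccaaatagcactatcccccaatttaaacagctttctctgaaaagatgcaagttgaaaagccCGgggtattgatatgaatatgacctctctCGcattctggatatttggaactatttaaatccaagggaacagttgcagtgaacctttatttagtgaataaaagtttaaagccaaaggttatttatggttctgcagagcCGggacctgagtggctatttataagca

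These windows hold 28 CpGs for Hoxa5, 14 for Hoxb4, 8 for Hoxc4 and 3 for Hoxd4. The count was higher for Hoxa5 than for Hoxb4, as was the level, while Hoxc4, listed at 0, had more CpGs than Hoxd4. Hoxd4 was itself near 0, so the 4 windows cannot show whether the count follows the level. RefSeq's table had a promoter for 22 of the 39 genes, and for 20 the start matched the deposited tables. Among these, the 13 genes above 0 in any library had 2 to 28 CpGs (median 7), the 7 genes listed at 0 had 7 to 35 (median 13), and the median of all 32851 promoters in the table was 6. The posterior gene Hoxa13, listed at 0, had the 35. Hoxa4, Hoxb2, Hoxb3 and Hoxb5, which reached 1 FPKM, had no promoter in RefSeq's table, nor had any Hoxc gene but Hoxc4. Among the 13, Hoxa9, Hoxa10, Hoxd3, Hoxd8 and Hoxd9 reached at most 0.0399 FPKM. The comparison is therefore not one of expressed against silent Hox genes. The letters TGATNNAT, a form of the joint Hox and Pbx binding site, were searched on both strands and stood in 4 of the 24 Hox windows (2 genes have a pair of starts) and in 7.68% of all promoters. The windows with a match belong to Hoxa2, Hoxb1, Hoxb8 and the second start of Hoxd11, and none of the 4 printed windows holds one.

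Both expressed clusters were higher in the Sox2-labelled pair by their means, but for cluster A the labels overlapped. Cluster A has 11 genes on the minus strand of chromosome 6 (52155367 to 52260880, build mm10). Its summed level was 11.1 and 2.63 FPKM in the Sox2-labelled pair and 3.57 and 1.18 FPKM in the control-labelled pair, so that Sox2-labelled replicate 2 lay below control-labelled replicate 1. The fold of the means was 2.88, a log2 ratio of 1.53 that fell to 0.15 without Sox2-labelled replicate 1. Cluster B, with 10 genes on the plus strand of chromosome 11 (96194361 to 96368253), stood at 10.2 and 5.06 FPKM against 3.32 and 1.96 FPKM. Here the labels did not overlap and the fold was 2.88 as well, with log2 ratios from 0.94 to 1.96 when any 1 library was left out. Under median-of-ratios rescaling cluster A no longer overlapped (10.4 and 3.4 against 2.85 and 1.21), nor did the central genes described below, so the contrast between clusters A and B was not seen on that scale. With 2 against 2 libraries an exact permutation test cannot give a p below 0.33, so the sums carry no test.

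Clusters C and D contributed next to nothing. Cluster C (9 genes, chromosome 15, 102921131 to 103036852) was listed at 0 throughout. Cluster D (9 genes, chromosome 2, 74668310 to 74765142) summed to 0.228 and 0.0986 FPKM in the Sox2-labelled pair and 0.0636 and 0.0328 FPKM in the control-labelled pair, also with no overlap, about 1% of the Hox sum in each library (0.914% to 1.27%). The shares of clusters A and B went with the replicate number of the titles, not with the label. Cluster A held 51.5% of the Hox sum in Sox2-labelled replicate 1 and 51.4% in control-labelled replicate 1, but 33.8% and 37.1% in replicate 2 of each label. What the replicate number stands for is not stated in the labels.

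By place in the cluster, the anterior genes (paralog groups 1 to 3) and the central genes (groups 4 to 8) held nearly the whole signal. Anterior genes summed to 7.62 and 3.53 FPKM in the Sox2-labelled pair and 2.44 and 1.11 FPKM in the control-labelled pair, 3.14-fold by the means and with no overlap. That fold was 1.99 without Sox2-labelled replicate 1 and 5.03 without control-labelled replicate 1. Central genes summed to 13.6 and 4.16 FPKM against 4.36 and 1.83 FPKM, a 2.87-fold difference of the means in which Sox2-labelled replicate 2 lay just below control-labelled replicate 1, and which was 1.35-fold without Sox2-labelled replicate 1. Posterior genes (groups 9 to 13) summed to 0.264 and 0.0971 FPKM against 0.154 and 0.240 FPKM. Their labels overlapped with no clear direction (log2 ratio -0.12, with values from -1.02 to 0.42 when 1 library was left out). The posterior share of the Hox sum was 1.23% and 1.25% in the Sox2-labelled pair and 2.21% and 7.57% in the control-labelled pair. By paralog group, the fold of the means was 2.97 for group 2, 3.57 for group 3, 4.73 for group 4 and 3.15 for group 5, then 1.5 for group 6, 1.10 for group 7, 0.8 for group 8 and 0.588 for group 9. Without Sox2-labelled replicate 1 the folds were 1.86, 2.28, 1.83 and 1.51 for groups 2 to 5 and 0.854, 0.347, 0.705 and 0.162 for groups 6 to 9. Groups 1 and 11, each with 1 gene above 0, did not continue this run, with folds of 1.28 and 2.99. Their folds were 1.19 and 2.44 without Sox2-labelled replicate 1. Group 10 was above 0 in control-labelled replicate 1 only, and groups 12 and 13 were listed at 0. The difference between the places was not tested.

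**Figure D1:**
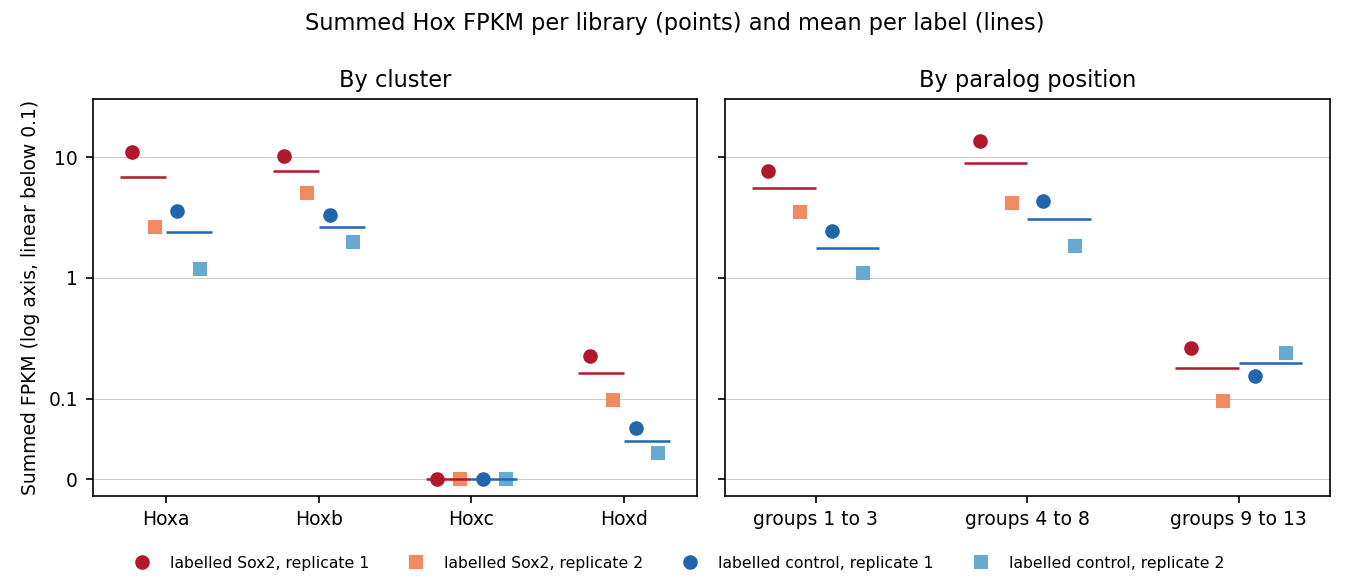
Summed FPKM of the Hox genes by cluster (left) and by paralog position (right), 1 point per library, with lines at the mean of each label (y, logarithmic and linear below 0.1). Clusters B and D and the anterior groups separate the labels, cluster A and the central groups overlap, and the posterior groups overlap with no direction.

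Only Hoxa5, Hoxb2 and Hoxb5 had a mean of at least 1 FPKM and entered the test, and none passed it. In limma, 0 of the 3 had an adjusted p under 0.05 and 0 an unadjusted p under 0.05. Of all tested genes, 4.2% were called higher and 8.11% lower after adjustment, and 8.47% were higher at an unadjusted p under 0.05. The 3 had a median log2 difference of 0.95, against -0.29 for all tested genes. Since a gene this low passes the filter more easily when 1 label is high, the 3 do not stand for the family. Quantile normalization, which moves the median of all genes to -0.04, brought Hoxb2 past the threshold (adjusted p in limma 0.0442) and left the other 2 short of it. When 12 members with a mean of at least 0.1 FPKM were fitted on log2(FPKM + 0.1), an alternative chosen after seeing the data, limma again passed none of them (lowest adjusted p 0.157, for Hoxb3). In that fit 2.78% of all genes were called higher and 5.05% lower, 10 of the 12 members had a positive difference, and Hoxa6 (-0.75) and Hoxb9 (-0.44) a negative one. A low gene also passes this filter more easily when 1 label is high, so the 12 do not stand for the family either. With no filter, on log2(FPKM + 1), 16 members had a positive difference and 6 a negative one. The share of positive differences over all genes was not computed.

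Anterior members came first in the order of the clusters. Hoxb1, which patterns the hindbrain, was listed at 0. Hoxb2, a regulator of hindbrain segments, stood at 3.07 and 1.75 FPKM in the Sox2-labelled pair and at 1.05 and 0.616 FPKM in the control-labelled pair. The labels did not overlap, with means of 2.41 ± 0.936 and 0.835 ± 0.309 FPKM (SD, n = 2). The log2 difference, 0.88, missed the threshold (SE 0.40, limma adjusted p = 0.175). Its paralog Hoxa2, which patterns the second branchial arch, measured 1.40 and 0.285 FPKM against 0.387 and 0.132 FPKM. Here Sox2-labelled replicate 2 lay below control-labelled replicate 1. Hoxa2 was therefore high in Sox2-labelled replicate 1 alone, and its fold of 3.25 was 1.10 without that library.

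Group 3 genes act in the pharyngeal region and neck. Hoxb3 stood at 1.54 and 0.977 FPKM in the Sox2-labelled pair and at 0.463 and 0.228 FPKM in the control-labelled pair. It was the 1 member whose deposited bounds did not overlap between the labels, the lower bound in Sox2-labelled replicate 2 being 0.686 FPKM and the upper bound in control-labelled replicate 1 being 0.613 FPKM. Such separation of the bounds held for 7.52% of all genes above 0 in that direction and 20.1% in the other, so 1 of 22 members is no excess. Hoxa3 was at 1.52 and 0.466 FPKM against 0.445 and 0.133 FPKM, which puts Sox2-labelled replicate 2 and control-labelled replicate 1 side by side. The listed span of Hoxa3 (52169062 to 52213067 on chromosome 6) covers Hoxa4, Hoxa5 and Hoxa6, so the split of fragments among these genes is uncertain. Hoxd3 had 0.0219 FPKM in Sox2-labelled replicate 1 and was listed at 0 elsewhere.

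Central members showed the highest values. Hoxa5 (52201754 to 52204587 on chromosome 6), the member best known from the lung, stood at 5.78 and 1.68 FPKM in the Sox2-labelled pair and at 1.88 and 0.680 FPKM in the control-labelled pair. The labels overlapped, Sox2-labelled replicate 1 being high and control-labelled replicate 2 low, with means of 3.73 ± 2.90 and 1.28 ± 0.851 FPKM (SD, n = 2). The log2 difference, 0.95, missed the threshold (SE 0.51, limma adjusted p = 0.234). Its fold of 2.91 was 1.31 without Sox2-labelled replicate 1, 4.51 without Sox2-labelled replicate 2 and 5.49 without control-labelled replicate 1. Hoxb5 (96303512 to 96306121 on chromosome 11), a paralog also known from lung mesenchyme, stood at 3.25 and 1.17 FPKM against 0.995 and 0.214 FPKM. Its labels did not overlap, but Sox2-labelled replicate 2 and control-labelled replicate 1 lay within each other's bounds (0.751 to 1.59 and 0.704 to 1.29 FPKM). The log2 difference of Hoxb5 was 0.97 (SE 0.46, limma adjusted p = 0.185), and its fold of 3.66 was 1.94 without Sox2-labelled replicate 1 and 10.3 without control-labelled replicate 1. Hoxc5, the third paralog, was listed at 0.

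The group 4 genes ranged from silent to above 1 FPKM. Hoxa4 stood at 1.46 and 0.145 FPKM in the Sox2-labelled pair and at 0.135 and 0 FPKM in the control-labelled pair. Its fold of 11.9 came from Sox2-labelled replicate 1 and was 2.14 without it. Hoxb4, which is also known from blood stem cells, had values of 1.45 and 0.543 FPKM against 0.426 and 0.219 FPKM, with no overlap and a fold of 3.09, which was 1.68 without Sox2-labelled replicate 1. Hoxd4 stood at 0.0626 and 0.0272 FPKM in the Sox2-labelled pair and was listed at 0 in both control-labelled libraries, while Hoxc4 was at 0 in all 4.

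Towards group 9 the direction faded. Hoxb6 stood at 0.682 and 0.456 FPKM in the Sox2-labelled pair and at 0.159 and 0.277 FPKM in the control-labelled pair, with no overlap. Hoxa6 and Hoxa7 overlapped, with highest values of 0.469 and 0.320 FPKM in Sox2-labelled replicate 1 and a value of 0 in Sox2-labelled replicate 2. Hoxb8 was the 1 member whose 2 values in the Sox2-labelled pair (0.0604 and 0.0788 FPKM) lay below the control-labelled pair (0.118 and 0.106 FPKM). Hoxb7 reached 0.0968 FPKM and Hoxb9 reached 0.208 FPKM, both in control-labelled replicate 2. Among genes nearer the posterior end, many of which pattern the hind trunk and limbs, Hoxd11 stood at 0.103 and 0.0714 FPKM against 0.0258 and 0.0328 FPKM. Hoxa9, Hoxa10, Hoxd8 and Hoxd9 were each above 0 in 1 library and reached at most 0.0399 FPKM.

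Counted over the family, labels did not overlap in 10 of the 22 members above 0. In 9 (40.9% of the 22) the Sox2-labelled pair were higher, against 16.5% of all genes above 0. They were Hoxa3, Hoxa4, Hoxb2, Hoxb3, Hoxb4, Hoxb5, Hoxb6, Hoxd4 and Hoxd11. Of these, only Hoxb3 had deposited bounds that separated the labels. The nearest values of Hoxa4 were 0.145 and 0.135 FPKM, and Hoxd4 and Hoxd11 reached at most 0.0626 and 0.103 FPKM. In 1 (4.5% of the 22), Hoxb8, the Sox2-labelled pair were lower, against 33.8%, and under median-of-ratios rescaling this gene overlapped too. Scaled to a common sum without small RNA genes, 1 Hox gene still had the Sox2-labelled pair lower with no overlap. Neighbours in a cluster share enhancers and chromatin and are not independent, so these shares carry no test. Labelled Sox2 replicate 1 was the highest library for 16 of the 22. Control-labelled replicate 2 alone was the lowest for 9, members where it tied with another library at 0 not being counted. The matching shares over all genes were not computed.

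Within a library, the deposited bounds placed the members in tiers. In Sox2-labelled replicate 1, Hoxa5 (5.14 to 6.43 FPKM) stood clear of Hoxb5 (2.77 to 3.73 FPKM) and Hoxb2 (2.57 to 3.58 FPKM), which did not differ beyond their bounds. Hoxb3, Hoxa3, Hoxa4, Hoxb4 and Hoxa2 followed at 1.40 to 1.54 FPKM, again within one another's bounds, and then Hoxb6. In Sox2-labelled replicate 2, the bounds of Hoxb2, Hoxa5, Hoxb5 and Hoxb3 overlapped (1.75, 1.68, 1.17 and 0.977 FPKM). Hoxa5 led in the other 3 libraries, although in control-labelled replicate 2 its bounds (0.390 to 0.970 FPKM) overlapped those of Hoxb2. The 3 highest members made up 49.5% to 59.1% of the Hox sum in each library. Across the 22 members, Spearman's rho between libraries was 0.82 within the Sox2-labelled pair, 0.82 within the control-labelled pair and 0.75 to 0.88 across labels, a description over genes that share a library and its depth.

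The evidence behind the low values is thin. If the upper bound lies 2 Poisson standard deviations above the value, which was not tested, the bounds correspond to 1262 and 223 fragments over all 39 genes in the Sox2-labelled pair and to 335 and 103 in the control-labelled pair. On that reading 47 of 66 member values above 0 came out within 0.1 of a whole number. The posterior genes then rest on 22.7, 3.6, 8.8 and 10.7 fragments per library, in the same order, and the Hoxd genes on 17.7, 3.6, 3.4 and 1.1. Differences among these genes were not tested, and a listed 0 does not show that a gene is absent.

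Most markers of mesenchyme, where Hox genes are known to be active, had their highest and lowest library in common with the Hox sum. Of the 10 mesenchymal markers, 8 were highest in Sox2-labelled replicate 1 and 8 lowest in control-labelled replicate 2. The collagen gene Col1a1 stood at 82.3 and 27.9 FPKM in the Sox2-labelled pair and at 38.5 and 10.3 FPKM in the control-labelled pair. The lung mesenchyme regulator Tbx4 had 8.25 and 5.07 FPKM against 3.51 and 1.59 FPKM. The summed list was 293 and 105 FPKM against 154 and 63.5 FPKM, and the Hox sum per 100 FPKM of all 10 markers was 7.32 and 7.42 FPKM against 4.52 and 5.00 FPKM, with no overlap. In limma 0 of 10 were called higher and 1 lower (Twist1, at 0.330 and 0.179 FPKM against 27.8 and 31.0 FPKM), and the median log2 difference was 1.17. Without Twist1 the sum was 293, 105, 126 and 32.5 FPKM, and the Hox sum per 100 FPKM of these 9 markers was 7.33 and 7.44 FPKM in the Sox2-labelled pair and 5.52 and 9.77 FPKM in the control-labelled pair. The labels thus overlapped per 100 FPKM of the 9 markers and did not overlap per 100 FPKM of all 10. Per 100 FPKM of the endothelial list, given below, the direction was reversed, so it depended on the list chosen. Twist1 was left out after its values were seen. In bulk libraries fewer cells of a type and less RNA per cell cannot be told apart, and the part of mesenchymal cells in the Hox levels was not tested.

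Among other cell types, the alveolar type 2, endothelial and leukocyte sums had the library order of the Hox sum. The mesothelial and neural sums did not. The 6 markers of alveolar type 2 cells, the surfactant-producing cells beside AT1 cells, summed to 24067 and 16772 FPKM against 5731 and 910 FPKM. In limma 6 of 6 were called higher, and all 6 were highest in Sox2-labelled replicate 1 and lowest in control-labelled replicate 2. The 6 endothelial markers summed to 104 and 47.5 FPKM in the Sox2-labelled pair and to 31.9 and 11.5 FPKM in the control-labelled pair, with 2 of 6 called higher in limma, and all 6 were highest in Sox2-labelled replicate 1 and lowest in control-labelled replicate 2. The 6 leukocyte markers summed to 46.1 and 32.4 against 16.0 and 6.84 FPKM. In limma 1 of 4 tested was called higher, Csf1r, at 27.7 and 25.2 FPKM against 3.02 and 1.03 FPKM. The mesothelial list summed to 93.5 and 88.3 against 38.5 and 62.8 FPKM, most of it Msln, while Wt1, its defining regulator, did not exceed 0.184 FPKM. Neural markers, of interest because hindbrain and spinal cord use many Hox genes, did not exceed 0.638 FPKM. Per 100 FPKM of the endothelial markers the Hox sum was 20.7 and 16.4 FPKM against 21.8 and 27.7 FPKM. Per 100 FPKM of the alveolar type 2 markers it was 0.0892 and 0.0465 FPKM against 0.121 and 0.349 FPKM. On either list the Sox2-labelled pair were lower with no overlap, the reverse of the whole mesenchymal list. The part of these cell types in the Hox levels was not tested.

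**Figure D2:**
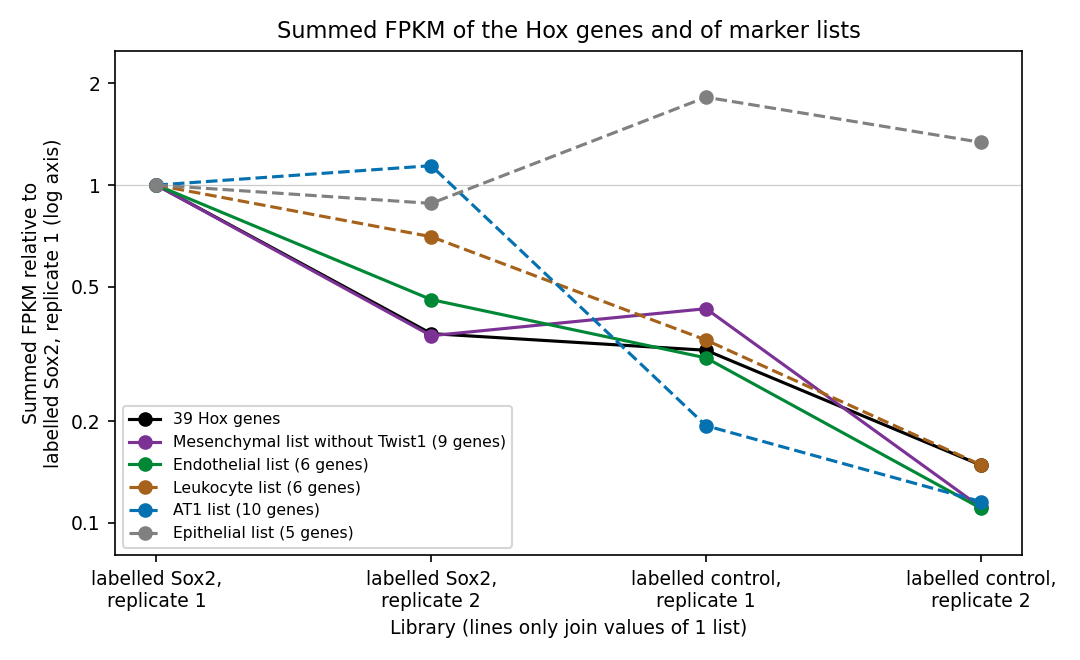
Summed FPKM of the 39 Hox genes and of 5 marker lists (the mesenchymal one without Twist1) in each library, relative to Sox2-labelled replicate 1 (y, log axis). In Sox2-labelled replicate 2 the Hox line lies nearest the mesenchymal and endothelial lines. In the control-labelled pair the leukocyte line lies close to it as well. The AT1 line stays high in Sox2-labelled replicate 2 and is low in the control-labelled pair. The epithelial line is highest in control-labelled replicate 1. Twist1 was left out after its values were seen, the alveolar type 2 list is not drawn, and nearness of the lines was not tested.

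The TALE cofactors did not follow the Hox genes as a family. Of 9 genes 8 were tested, and in limma 0 were higher and 0 lower, with a median log2 difference of 0.02. Pbx2, the most abundant of them, was at 28.6 and 31.4 FPKM in the Sox2-labelled pair and at 18.3 and 18.4 FPKM in the control-labelled pair, with no overlap (log2 difference 0.68, SE 0.32, limma adjusted p = 0.178). The cofactors Meis1 and Meis2, named after their values were seen, had the order of libraries seen for the Hox genes in cluster A. Meis1 had 3.14 and 0.798 FPKM against 1.31 and 0.405 FPKM, and Meis2, untested, at 1.15 and 0.218 FPKM against 0.350 and 0.0822 FPKM. Per length, the FPKM of Pbx2 was above that of every Hox gene in each library.

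Of 46 genes known to regulate Hox clusters, 40 were tested. In limma 0 were called higher and 6 lower (15.0% of those tested, against 8.11% of all genes), and the median log2 difference was -0.40, close to the -0.29 of all genes. With Sox2-labelled replicate 2 left out none of the 6 passed. Retinoic acid, made by Aldh1a enzymes and broken down by Cyp26 enzymes, switches on Hox genes in embryos. Cyp26b1, which degrades it, stood at 0.742 and 0.3 FPKM against 9.30 and 6.57 FPKM (log2 difference -2.55, limma adjusted p = 0.00344). Aldh1a2, which makes it, stood at 1.5 and 0.342 FPKM against 6.04 and 9.97 FPKM (log2 difference -2.26, limma adjusted p = 0.00999). Enzymes with opposite roles were thus both lower. Gmnn, a regulator of DNA replication that also binds Hox proteins, stood at 9.75 and 3.94 FPKM against 37.8 and 40.7 FPKM (log2 difference -2.46, limma adjusted p = 0.00408).

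Phc2, a Polycomb subunit, and Wdr5, a subunit of the complexes that methylate histone H3 at active Hox genes, were also lower and were named after their values were seen. Phc2 stood at 31.3 and 30.5 FPKM against 64.6 and 122 FPKM (log2 difference -1.5, limma adjusted p = 0.0222), a call lost under both rescalings and quantile normalization and without any of 3 libraries. Wdr5 stood at 11 and 8.75 FPKM against 26.0 and 25.6 FPKM (log2 difference -1.31, limma adjusted p = 0.0289). It no longer passed when control-labelled replicate 2 or either Sox2-labelled library was left out. Of the 13 ParaHox and neighbouring homeobox genes, which include the Cdx regulators of posterior Hox genes, none could be tested, 9 were listed at 0 in all libraries and the highest value was 0.215 FPKM.

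Non-coding entries inside the clusters were silent or nearly so. Hotair, Hottip, Hoxa11os, Hoxd3os1 and the microRNA genes Mir10a, Mir10b, Mir196a-1, Mir196a-2, Mir196b and Mir615 were listed at 0 in all libraries, which for microRNAs says little in poly-A libraries of long RNA. Mira and 2700086A05Rik did not exceed 0.112 FPKM, and Gm53, named after its values were seen, lay between 0.303 and 0.560 FPKM. No source used here gives the strand setting of the counting, so reads from a Hox gene and an antisense partner may not be separated.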

How the data were processed

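RNA of sorted AT1 cells was sequenced on a HiSeq2000 from poly-A libraries, per the labels' protocols. The authors deposited FPKM values and their confidence bounds for each gene, per the file headers. The submitters' processing notes name TopHat2, Bowtie2, Cufflinks and Cuffdiff with mm10; no source used here gives versions, annotation or strand setting. Read counts were not used here, so absolute depth is unknown. A table with 2 columns of group values was not used, because no label ties them to a group.

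The 4 tables of 24490 entries were joined by symbol, adding entries of 1 symbol (267 genes) and leaving out 1 gene whose value was marked as failed. Testing used log2(FPKM + 1) of genes whose 4-library mean reached 1 FPKM in limma 3.58.1 (R 4.3.3; lmFit, eBayes with trend), two-sided, with Benjamini-Hochberg adjustment over 12040 genes and a threshold of 0.05. A log2 difference is labelled Sox2 minus labelled control on that scale, which understates changes of low genes. Folds are ratios of mean FPKM. On simulated data the fit was checked to recover known changes. Positions are 1-based on mm10, and 39 of 39 symbols matched GENCODE M21.

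The members and gene lists were chosen with earlier results of these data known. The naming rule takes Sox2, every Hox gene, and from each other list up to 4 genes past the threshold with the largest difference, or else the 2 most abundant; genes outside it are named as such or stand for a marker list. Some items under this rule are not reported here.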

Additional observations from a re-analysis of the deposited data

How the results depend on the processing

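No Hox gene was called in either direction under any alternative, apart from 1 called higher with quantile normalization (Hoxb2) and 3 with the replicate block. The replicate number of the titles is a number only, since no label says what it marks. Same-numbered libraries deviated together over the tested genes (r = 0.23), and 2 pairs cannot settle a pairing. With the replicate block 3 of 3 tested Hox genes were called higher, with 1 TALE cofactor higher and 3 lower, and 1 regulator higher and 11 lower. Requiring a mean of 5 FPKM left no Hox gene to test. Over all genes, 506 were higher and 976 lower, against 1142 and 2730 with the block, 882 and 767 under median-of-ratios rescaling, 980 and 827 with quantile normalization, 854 and 752 with a common sum, 603 and 1350 under the robust variance model and 0 and 0 with no filter. Leaving out Sox2-labelled replicate 1 or 2 gave 173 and 422 or 119 and 115, and leaving out control-labelled replicate 1 or 2 gave 837 and 887 or 399 and 1312.

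The median log2 difference of the tested Hox genes was 0.95. It was 1.41 with a pseudocount of 0.1 and 1.47 with a common sum without small RNA genes. Over 12 genes it was 1.33 when both the mean filter and the pseudocount were 0.1 (chosen after seeing the data). With no filter (39 genes) it was 0, a value set by the 17 members listed at 0 throughout, since 16 differences were positive and 6 negative. Leaving out 1 library in the main fit gave 0.48 to 1.45. The log2 ratio then ranged from 0.15 to 2.54 for cluster A, 0.43 to 2.28 for the central groups and -1.02 to 0.42 for the posterior groups. The posterior ratio changed sign without Sox2-labelled replicate 2 (0.42) or control-labelled replicate 2 (0.23), under median-of-ratios rescaling (0.021) and with a common sum (0.092). The cause was not tested.

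TALE cofactors gave 1 higher with a common sum, and 0 to 1 lower with 1 library left out. Regulators gave 1 higher under the robust variance model, 0 lower with no filter, and 0 to 1 higher and 0 to 7 lower with 1 library left out. Under median-of-ratios rescaling and a common sum, 11 Hox genes had the Sox2-labelled pair higher with no overlap, against 9 as deposited. Both scales moved genes in general the same way, their median going from -0.29 to -0.055 and -0.054. The share of all genes without overlap was not computed on these scales, so the rise from 9 to 11 cannot be assigned to Hox genes. The fold of the Hox sum was 3.44 and 3.47 on these scales, against 2.89 as deposited. Without Sox2-labelled replicate 1 the deposited fold was 1.54, and without control-labelled replicate 1 it was 4.61. Under median-of-ratios rescaling no Hox gene had the Sox2-labelled pair lower with no overlap, against 1 with a common sum and 1 as deposited.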
